A study of Homo sapiens with 18 samples.

Results

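The 2 human plasma cell tumour lines JJN3 and KMS12-BM were compared without an active drug, over every gene measured. The comparison rests on 6 of the 18 arrays in the series, 3 of JJN3 and 3 of KMS12-BM, each kept for 24 h with the solvent DMSO. Of 70523 probe sets, the one with the highest mean over all arrays was taken for each gene symbol, which gave 22465 genes. KMS12-BM is labelled multiple myeloma and JJN3 plasma cell leukemia, and both are established lines, so each stands for 1 tumour. JJN3 was grown in RPMI medium with a smaller share of fetal bovine serum than KMS12-BM, so cell line and medium cannot be told apart. The other 12 arrays used here hold the same lines after 24 h with TG003, an inhibitor of CLK kinases, at 0.4 mM in both, or with amiloride, a sodium channel blocker, at 0.1 mM in KMS12-BM and 0.4 mM in JJN3. One KMS12-BM amiloride array has JJN3 in its cell line field, against its title, source and disease fields, and was kept as KMS12-BM. The sample labels name total RNA, whereas the series text names poly A+ RNA.

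Plasma cells are the antibody-secreting end stage of B lymphocytes, and myeloma is their malignant growth in the bone marrow. In many myelomas a translocation brings an oncogene under the control of the immunoglobulin heavy chain locus. CCND1, the gene of cyclin D1, is the usual partner in one class, which KMS12-BM represents, and the transcription factor gene MAF in another, which JJN3 represents. MAF is known to activate CCND2, the gene of cyclin D2, and D cyclins drive cells through the G1 phase by activating CDK4 and CDK6.

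Levels below are log2 intensities after RMA, differences are JJN3 minus KMS12-BM on the log2 scale with the SE from limma (n = 3 arrays per line), and adjusted p-values are limma's with Benjamini-Hochberg adjustment over all 22465 genes. A gene was called at an adjusted p under 0.05. The background reference was a level of 6.87, the 95th percentile of 92 control probe sets, and a fold against a line below it is given as a lower bound, from the higher line's mean to the reference. Arrays of 1 line in DMSO correlated at 0.997 to 0.9984 across genes, and arrays of different lines in DMSO at 0.9368 to 0.9399. Array medians lay between 4.50 and 4.69. Only 8063 genes lay above the reference in at least 1 line. In bulk RNA such as this, fewer cells expressing a gene and less RNA per cell cannot be told apart.

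The 5 genes chosen as markers of the lines separated the arrays by line. CCND1 had levels of 15.07, 14.85 and 14.70 in KMS12-BM and of 6.36, 5.76 and 6.13 in JJN3. CCND2 ran the other way, at 6.11, 6.07 and 5.77 in KMS12-BM and 15.30, 15.31 and 15.06 in JJN3. Each line thus had 1 of these D cyclins far above the reference and the other below it on all 3 arrays. The CCND1 log2 difference was -8.79 ± 0.16 (adjusted p = 3.7e-16), at least 257-fold lower in JJN3, and that of CCND2 was 9.24 ± 0.12 (adjusted p = 6.8e-18), at least 328-fold higher. MAF was at 4.78, 4.74 and 5.0 in KMS12-BM and at 10.82, 11.15 and 11.52 in JJN3, a log2 difference of 6.32 ± 0.18 (adjusted p = 9.9e-14), at least 19.6-fold higher. HGF, the gene of hepatocyte growth factor, a ligand that many myeloma cells secrete, was at 4.56, 4.66 and 4.74 in KMS12-BM against 16.42, 16.52 and 16.46 in JJN3. Its log2 difference was 11.82 ± 0.09 (adjusted p = 1.9e-20), at least 777-fold. HLA-DRA, the alpha chain of the class II molecule HLA-DR, was at 5.71, 5.80 and 6.04 in KMS12-BM and at 17.95, 18.08 and 18.05 in JJN3, at least 2290-fold higher. For none of the 5 genes did the arrays of the lines overlap.

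**Figure D1:**
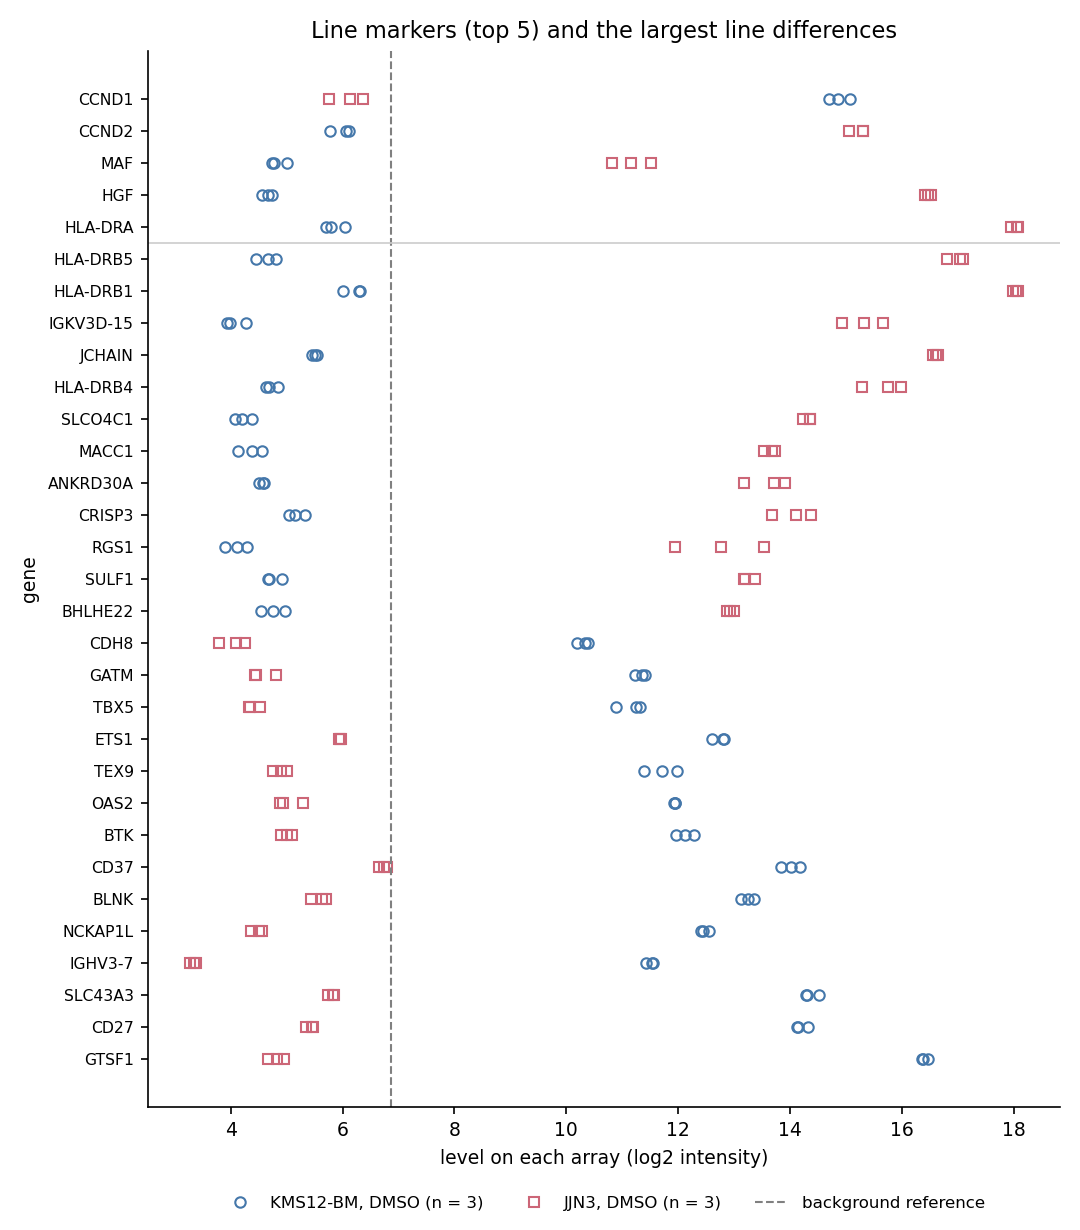
Log2 level on each of the 6 DMSO arrays (horizontal axis) for the 5 line markers and for the genes with the largest differences that the naming rule picked. Circles are the 3 KMS12-BM arrays, squares the 3 JJN3 arrays and the dashed line the background reference of 6.87. In each gene shown, all 3 arrays of one line lie above the reference and all 3 of the other below it.

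Across all genes, 9258 of 22465 (41.2%) were called, 4245 higher in JJN3 (18.9%) and 5013 lower (22.3%). At least 2-fold, 1464 were higher (6.52%) and 1539 lower (6.85%). The median log2 difference over all genes was -0.02. Arrays of the lines did not overlap in 11156 genes (49.7%). Of the genes called at least 2-fold, 511 higher in JJN3 were below the reference in KMS12-BM and above it in JJN3, and 420 lower in JJN3 were the reverse. Large differences were mostly of this kind. Of 257 genes at least 8-fold higher in JJN3, 216 were below the reference in KMS12-BM, and of 148 at least 8-fold lower, 108 were below it in JJN3. With so many calls, a list in which about 41% of members were called is near the background over all genes. Calls were more frequent above the reference, with 6004 called of the 8063 genes above it in at least 1 line. A list made mostly of such genes has that larger share as its background.

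**Figure D2:**
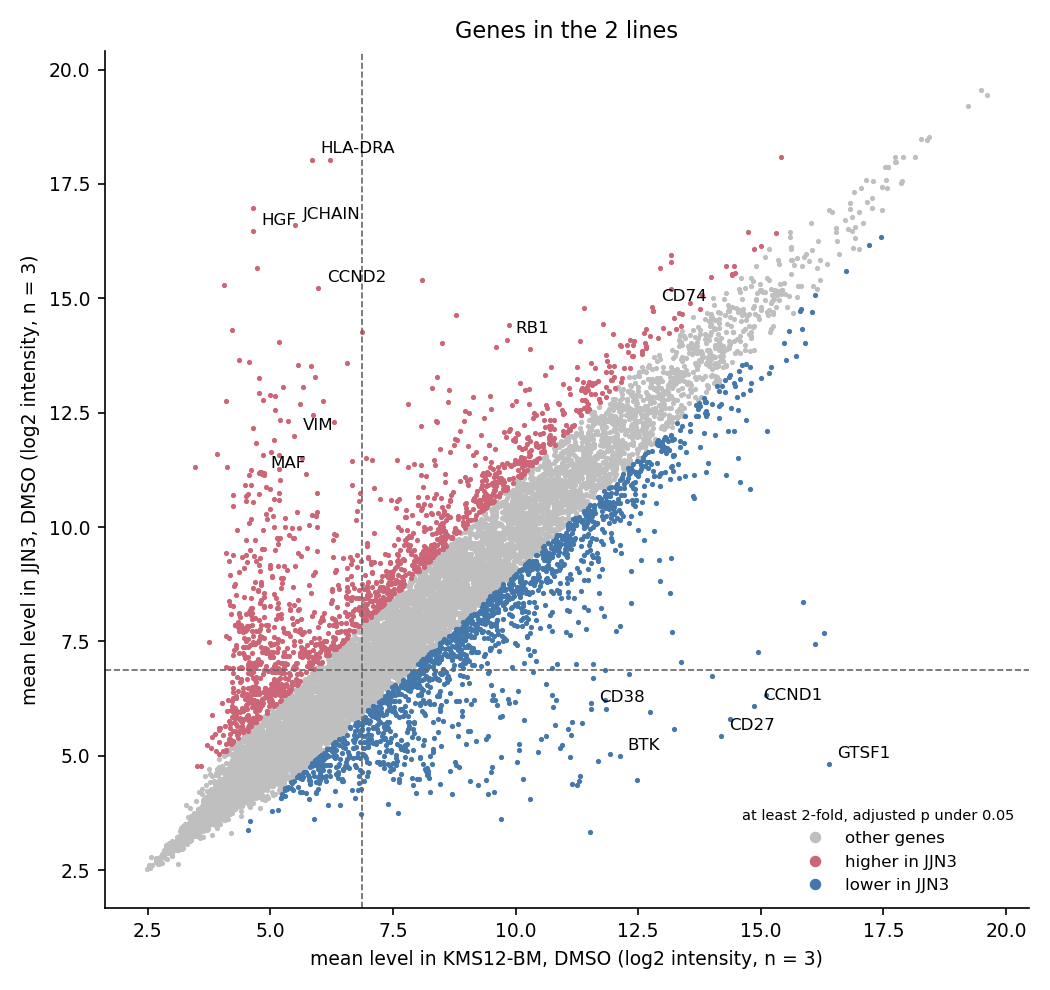
Mean log2 level of each gene in JJN3 (vertical axis) against KMS12-BM (horizontal axis), 3 DMSO arrays each. Coloured points were called at least 2-fold and dashed lines mark the reference of 6.87 in each line. HLA-DRA, HGF, JCHAIN, CCND2 and MAF lie above the reference in JJN3 alone, and GTSF1, CCND1, CD27, BTK and CD38 in KMS12-BM alone.

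HLA class II genes were among the largest differences in favour of JJN3. Class II molecules present peptides from endocytosed protein to CD4 T cells, are normal on B cells and are usually lost in plasma cells. Of 20 measured genes of the pathway, 15 were called higher in JJN3, 3 lower and 2 were not called, with a median log2 difference of 1.95 against -0.02 over all genes. Of the paired chains, HLA-DPA1 was at 5.52, 5.60 and 5.61 in KMS12-BM and 13.45, 13.59 and 13.59 in JJN3, at least 102-fold higher. HLA-DQA1 was at 5.70, 5.89 and 6.16 against 13.19, 13.38 and 13.31, a log2 difference of 7.38 ± 0.19 (adjusted p = 2e-14). HLA-DQB1 differed by 7.12 ± 0.24 on the log2 scale (adjusted p = 5.8e-13) and HLA-DMA, a chain of the peptide-loading helper HLA-DM, by 5.83 ± 0.19 (adjusted p = 2.7e-13). HLA-DRB1, HLA-DRB5 and HLA-DRB4 differed by 11.82, 12.34 and 10.95. These 3 genes are near-identical in sequence, differ between people and may share probe signal, so their separate values are uncertain, as are those of HLA-DQA2 and HLA-DQB2.

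KMS12-BM was not without the rest of the pathway. CD74, the invariant chain that escorts class II molecules, stood at 12.83, 12.78 and 12.75 in KMS12-BM and 14.76, 14.75 and 14.88 in JJN3, so it lay far above the reference in both lines and differed by 2.01 ± 0.10 (log2, adjusted p = 1e-10). CIITA, the coactivator that switches class II genes on, was at levels of 7.4, 6.96 and 7.27 against 8.23, 8.25 and 8.24, a log2 difference of 1.03 ± 0.13 (adjusted p = 4.6e-06). Its level in KMS12-BM was above the reference on all 3 arrays. The genes of the RFX complex, which binds class II promoters, did not move together. RFX5 was higher in JJN3 by 0.74 ± 0.09 (log2, adjusted p = 3.7e-06), and RFXAP was lower by a log2 difference of -0.89 ± 0.14 (adjusted p = 5e-05). RFXANK was lower at -0.45 ± 0.15 (adjusted p = 0.019), a call that was lost when KMS12-BM array 1 (adjusted p = 0.053), KMS12-BM array 3 (adjusted p = 0.083) or JJN3 array 2 (adjusted p = 0.091) was left out. Class I genes present peptides to CD8 T cells. Of 21 measured, 16 were called higher in JJN3 and 3 lower, with a median log2 difference of 0.84. HLA-E (2.04 ± 0.15), HLA-B (1.51 ± 0.14) and HLA-C (1.0 ± 0.13) were higher in JJN3, while B2M, the shared light chain, stood at 16.03, 15.97 and 15.77 in KMS12-BM and 15.94, 15.96 and 15.97 in JJN3 and was not called (adjusted p = 0.86).

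Promoters of the class II genes are shown because these genes were higher together and share a known layout, in which RFX binds the X box and the factor NF-Y binds the CCAAT letters of the Y box. RefSeq promoter sequences (GRCh38.p14, 250 bases before to 50 after the annotated start) were matched for 17 of the 20 genes by symbol. The letters CCAAT or their reverse complement ATTGG occurred in at least 1 promoter of 14 of the 17 genes. They occurred in 34.6% of all 35116 promoters of the same length. Among the 12 with a promoter that were called at least 2-fold higher, 11 held them. The letters AGCAAC or GTTGCT, from the X box, occurred in 9 of the 17 genes and in 12.8% of all promoters. Of the 12 called at least 2-fold higher, 6 held these letters. A gene counted if any of its promoters held the letters, whereas the shares are over single promoters, so the 2 are unlike measures. Both strands were searched, neither motif contains the other, and a match is a description of the sequence only. In the 4 promoters below, written 5′ to 3′, capitals mark CCAAT or ATTGG. The match nearest the start began 68 bases before it in HLA-DQA1, 64 in HLA-DQB1, 49 in HLA-DMA and 53 in CD74.
HLA-DQA1 (chr6:32637156-32637455, plus strand): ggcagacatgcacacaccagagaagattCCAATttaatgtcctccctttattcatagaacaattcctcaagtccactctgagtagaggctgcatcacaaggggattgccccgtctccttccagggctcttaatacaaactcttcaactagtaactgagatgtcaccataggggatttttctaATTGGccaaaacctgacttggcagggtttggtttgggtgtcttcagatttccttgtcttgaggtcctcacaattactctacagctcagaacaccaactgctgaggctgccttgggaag
HLA-DQB1 (chr6:32666608-32666907, minus strand): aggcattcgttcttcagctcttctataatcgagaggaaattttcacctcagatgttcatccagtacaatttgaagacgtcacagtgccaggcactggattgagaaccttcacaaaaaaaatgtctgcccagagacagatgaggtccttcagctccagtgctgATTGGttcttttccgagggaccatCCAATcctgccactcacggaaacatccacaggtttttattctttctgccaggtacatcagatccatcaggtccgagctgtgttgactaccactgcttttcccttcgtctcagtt
HLA-DMA (chr6:32953048-32953347, minus strand): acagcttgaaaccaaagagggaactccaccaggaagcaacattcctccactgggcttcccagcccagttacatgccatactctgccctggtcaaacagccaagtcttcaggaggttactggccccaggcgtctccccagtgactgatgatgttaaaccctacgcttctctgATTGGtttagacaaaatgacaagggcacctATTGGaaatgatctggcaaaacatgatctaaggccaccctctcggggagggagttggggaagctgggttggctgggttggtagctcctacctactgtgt
CD74 (chr5:150412861-150413160, minus strand): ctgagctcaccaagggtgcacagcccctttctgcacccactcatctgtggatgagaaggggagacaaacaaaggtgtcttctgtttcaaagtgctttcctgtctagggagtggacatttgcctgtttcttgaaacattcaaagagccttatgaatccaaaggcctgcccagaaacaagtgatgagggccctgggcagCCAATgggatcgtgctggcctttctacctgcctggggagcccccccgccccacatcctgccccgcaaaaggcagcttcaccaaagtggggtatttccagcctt

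Genes reported as raised in MAF-translocated myeloma were mostly higher in JJN3. Of 14 measured, 10 were called higher, 0 lower and 4 were not called, and the median log2 difference was 3.52. CCND2 and MAF themselves are 2 of the 10. CCR1, a chemokine receptor, was at 3.65, 3.36 and 3.41 in KMS12-BM and 11.32, 11.21 and 11.41 in JJN3, at least 21.8-fold higher. ITGB7, the integrin beta 7 chain that helps myeloma cells adhere to marrow stroma, was above the reference in both lines, at 9.72, 9.25 and 9.82 against 13.86, 13.79 and 14.15, a log2 difference of 4.34 ± 0.19 (adjusted p = 1.2e-11). AHR, the aryl hydrocarbon receptor, differed by 6.39 ± 0.14 and the kinase gene NUAK1 by 3.99 ± 0.15 on the log2 scale. DEPTOR, an inhibitor of mTOR known to be high in MAF myeloma, was at 7.72, 7.80 and 7.64 in KMS12-BM and 7.5, 7.76 and 7.96 in JJN3, so its arrays overlapped and it was not called (log2 difference 0.02 ± 0.15, adjusted p = 0.95). The other 3 genes not called, CX3CR1, ITGAE and SPP1, were below the reference in both lines. The letters TGCTGAC or GTCAGCA, part of the MAF recognition element, occurred in a promoter of 2 of the 12 genes of this list with a promoter. They occurred in 4.19% of all promoters, a share over single promoters rather than genes. Among the 9 genes with a promoter that were called at least 2-fold higher, 1 held the letters.

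Among G1 regulators the lines differed beyond the D cyclins. Of 21 measured, 9 were called higher in JJN3, 5 lower and 7 were not called, with a median log2 difference of 0.22. RB1, whose protein is the brake that D cyclin kinases release, was at 10.13, 9.82 and 9.51 in KMS12-BM and 14.17, 14.12 and 14.01 in JJN3, a log2 difference of 4.28 ± 0.15 (adjusted p = 1.2e-12). Its relative RBL2 was higher by 3.10 ± 0.11 (log2), and RBL1 was lower at -0.80 ± 0.15. The kinase genes also split. CDK6 was higher by 1.37 ± 0.18 (log2, adjusted p = 7.2e-06) and CDK4 was lower, at 14.91, 14.64 and 14.87 in KMS12-BM against 13.33, 13.09 and 13.04 in JJN3 (log2 difference -1.65 ± 0.14, adjusted p = 5.1e-08). CCNE2, a cyclin E gene that acts after the D cyclins, was higher by 3.37 ± 0.16. MYC was at 15.60, 15.72 and 15.55 in KMS12-BM and 15.76, 15.84 and 15.93 in JJN3 and was not called (log2 difference 0.22 ± 0.12, adjusted p = 0.19). In the DNA replication list, 19 of 41 measured were called higher and 10 lower. TK1, the S phase thymidine kinase, was higher by 3.22 ± 0.22 and MCM3 by 2.73 ± 0.11 (log2), whereas MCM7, another subunit of the same helicase, was lower at -1.44 ± 0.15.

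More B cell markers were higher in KMS12-BM than in JJN3. Of 31 B cell markers measured, 5 were called higher in JJN3, 14 lower and 12 were not called, with a median log2 difference of -0.12, and 11 lay above the reference in a line. Several genes of B cell receptor signalling were far lower in JJN3. BLNK, the adaptor that links the receptor to its effectors, was at 13.25, 13.36 and 13.12 in KMS12-BM and 5.63, 5.44 and 5.70 in JJN3, at least 83-fold lower. BTK, the tyrosine kinase downstream of the receptor, was at 12.28, 12.12 and 11.96 against 5.01, 4.90 and 5.10, at least 38.2-fold lower. CD79A, a signalling chain of the receptor, was at 11.50, 10.73 and 11.11 against 4.83, 5.10 and 4.99, at least 19-fold lower. All 3 genes were below the reference on every JJN3 array. CD79B, the partner chain, went the other way, with levels of 8.02, 7.96 and 7.94 in KMS12-BM and 9.16, 8.85 and 9.15 in JJN3 (log2 difference 1.08 ± 0.17, adjusted p = 5e-05). LYN, the kinase that starts the signal, was also higher in JJN3, by 1.32 ± 0.09 (log2, adjusted p = 2.7e-09). CD37, a tetraspanin, differed by -7.27 ± 0.16 and PAX5, the factor that sets B cell identity, by -2.0 ± 0.11. MS4A1 (CD20) and CD22 were below the reference in both lines.

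Plasma cell markers were called in equal numbers in each direction. Of 22 plasma cell markers measured, 9 were called higher in JJN3, 9 lower and 4 were not called, and 19 lay above the reference in a line. Their median log2 difference was 0.00 and changed sign with array scaling (0.04 after further quantile normalization, -0.05 with arrays centred). Among the factors that make a plasma cell, IRF4 was at 14.75, 14.77 and 14.78 in KMS12-BM and 14.41, 14.42 and 14.33 in JJN3 (log2 difference -0.38 ± 0.15, adjusted p = 0.058, not called although the arrays did not overlap). PRDM1 was higher in JJN3 by 1.16 ± 0.15 (log2, adjusted p = 7.3e-06), POU2AF1 by 1.60 ± 0.19 and XBP1 by 0.63 ± 0.19 (adjusted p = 0.013). ETS1, which restrains plasma cell differentiation in mice, was at 12.80, 12.82 and 12.61 in KMS12-BM and 5.94, 5.98 and 5.95 in JJN3, at least 58.6-fold lower. IKZF1, a lymphoid factor, differed by -3.26 ± 0.14. SDC1 (CD138), the usual surface marker of plasma cells, was at 5.78, 5.63 and 5.66 in KMS12-BM and 7.13, 7.23 and 7.68 in JJN3, so it lay below the reference in KMS12-BM and only slightly above it in JJN3. SLAMF7, FCRL5 and GPRC5D were below the reference in both.

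Of 27 myeloma surface antigens measured, 12 were called higher in JJN3 and 9 lower, with a median log2 difference of 0.04 that changed sign with centring (-0.01). Of these 27, 17 lay above the reference in a line. CD38 was at 11.86, 10.94 and 11.84 in KMS12-BM and 5.89, 6.0 and 6.21 in JJN3, at least 25.6-fold lower. TNFRSF17 (BCMA) was at 9.25, 10.25 and 9.70 against 8.97, 8.75 and 8.31, lower in JJN3 by a smaller log2 difference of -1.06 ± 0.26 (adjusted p = 0.0029), with arrays that did not overlap. CD27, a TNF receptor of memory B and plasma cells, was at 14.32, 14.12 and 14.14 against 5.45, 5.48 and 5.34, at least 161-fold lower. CD48 was higher in JJN3, at least 43.3-fold, and so was CD70, the ligand of CD27, by 1.12 ± 0.20 (log2, adjusted p = 0.00017). Of the 12 genes of the cereblon pathway, through which thalidomide-type drugs act, 5 were called higher in JJN3 and 4 lower. CRBN itself, the drug-binding receptor, was at 8.2, 8.35 and 8.10 in KMS12-BM and 7.43, 7.49 and 7.63 in JJN3 (log2 difference -0.70 ± 0.08, adjusted p = 1.7e-06). Of the targets degraded through it, IKZF3 was higher in JJN3 by 0.45 ± 0.08 and IKZF1 was lower at -3.26 ± 0.14 (log2).

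Immunoglobulin transcripts differed by kind. JCHAIN, which joins IgA and IgM into polymers, was at 5.51, 5.55 and 5.45 in KMS12-BM and 16.60, 16.65 and 16.55 in JJN3, at least 850-fold higher. Of 41 heavy chain variable segments measured, 0 were called higher in JJN3 and 23 lower, and of 39 kappa variable segments, 8 were called higher and 1 lower. Only 7 of the 41 and 6 of the 39 lay above the reference in a line, and these were all called, the 7 lower and the 6 higher. The other calls are in segments below the reference in both lines. These families were picked after their values were seen. IGHV3-7 was at 11.54, 11.55 and 11.43 in KMS12-BM and 3.27, 3.39 and 3.34 in JJN3, at least 24.9-fold lower. The other heavy chain segments above the reference are also of the IGHV3 kind, near-copies that may share probe signal, so their separate values are uncertain. Of these, IGHV3-33 was lower in JJN3 but stayed above the reference there, at 9.68, 10.17 and 8.33. The heavy chain gene IGHG4 ran the other way, with means of 4.76 in KMS12-BM and 7.73 in JJN3. IGKV3D-15 was at 3.93, 4.27 and 3.99 against 14.92, 15.32 and 15.66, at least 345-fold higher. The kappa segments over 5 log2 units higher, which include IGKV3-11, IGKV3D-11 and IGKV3D-20, are near-copies of one another that may share probe signal, so their separate values are uncertain. Among secretory genes, FKBP11 (-2.36 ± 0.12), PDIA4 (-1.91 ± 0.10) and SEC11C (-1.14 ± 0.14) were lower in JJN3 on the log2 scale, and SPCS2 was higher by 0.82 ± 0.11.

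HGF had the largest difference of its pathway. Of 16 genes of the HGF axis measured, 5 were called higher in JJN3, 4 lower and 7 were not called, with a median log2 difference of 0.01 that changed sign with scaling (0.04 and -0.03). Only 6 of the 16 lay above the reference in a line. MET, the HGF receptor, was called lower in JJN3 but its mean lay below the reference in both lines, with array levels of 6.68, 6.93 and 6.62 in KMS12-BM and 4.76, 4.72 and 4.81 in JJN3. ST14, which encodes matriptase, a protease that activates HGF, was higher in JJN3 by 1.33 ± 0.18 (log2, adjusted p = 8.2e-06). SPINT2, an inhibitor of such proteases, was at 7.38, 7.42 and 7.28 in KMS12-BM and 5.15, 5.32 and 5.21 in JJN3. In the list of MAPK and PI3K regulators, 18 of 35 measured were called higher and 6 lower, with a median of 0.26. DUSP6, a phosphatase induced by ERK that switches ERK off, was at 4.81, 4.38 and 4.62 in KMS12-BM and 10.09, 10.25 and 10.21 in JJN3, at least 9.95-fold higher. The feedback genes DUSP5 (2.34 ± 0.19), SPRED1 (2.39 ± 0.17) and SPRY2 (1.85 ± 0.09) and the immediate early gene EGR1 (4.93 ± 0.44) were higher on the log2 scale too. PIK3CG, a catalytic subunit of PI3K, was lower at -3.30 ± 0.10.

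**Figure D3:**
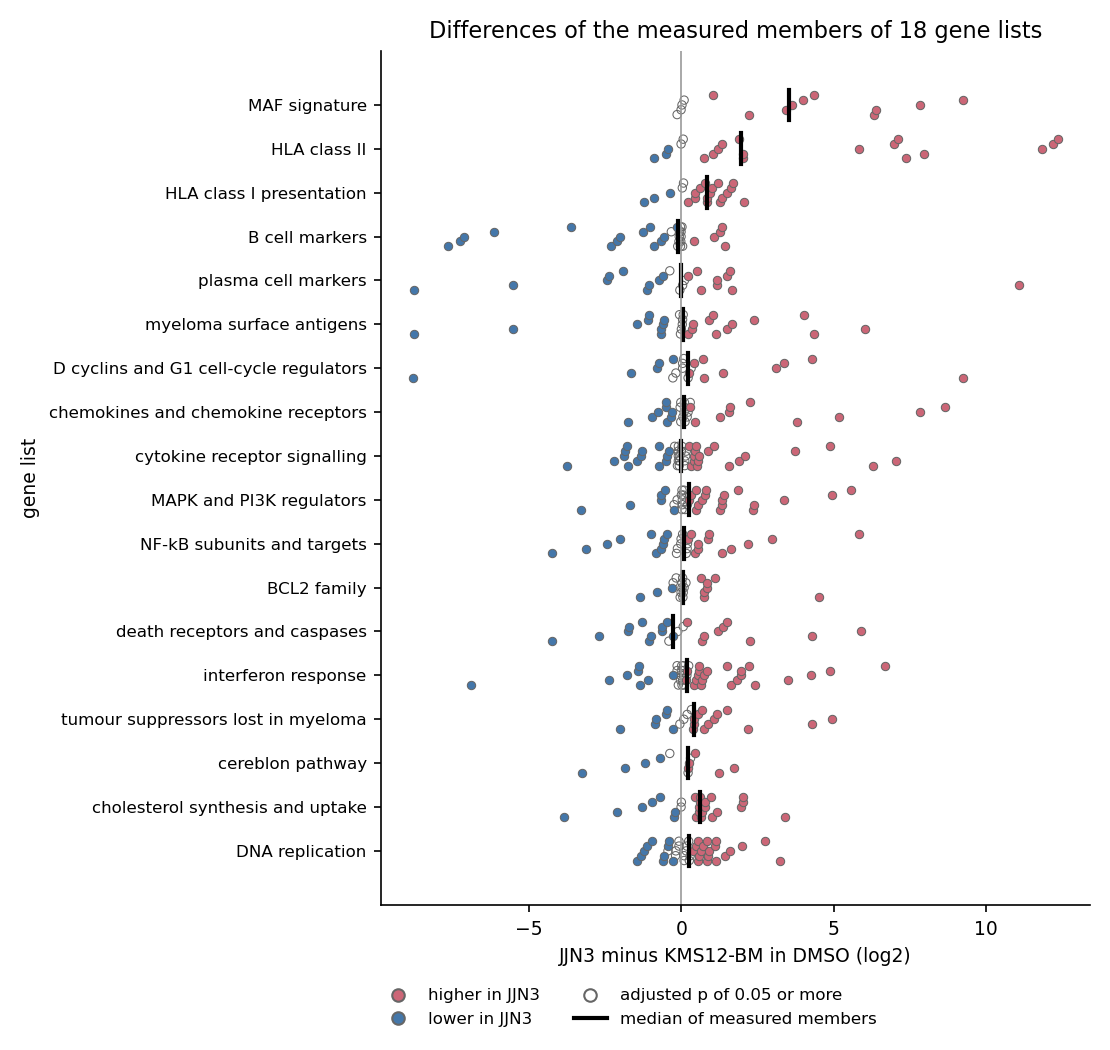
Log2 difference, JJN3 minus KMS12-BM in DMSO (horizontal axis), of each measured member of 18 gene lists. Red points were called higher in JJN3, blue points lower and open points were not called, and bars are medians over all measured members. HLA class II (median 1.95) and the MAF signature (median 3.52) lie to the right, while most other lists have members far out on both sides of 0.

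Cytokine and chemokine genes showed large differences within lists whose medians were near that of all genes. Of 47 cytokine receptor and signalling genes, 18 were called higher in JJN3 and 14 lower. Of the 47, 26 lay above the reference in a line. The IL6 receptor was split between its chains. IL6ST, the shared signalling chain gp130, was at 8.2, 8.66 and 8.34 in KMS12-BM and 13.13, 13.35 and 13.35 in JJN3 (log2 difference 4.88 ± 0.16, adjusted p = 4.6e-13). IL6R, the ligand-binding chain, was at 9.21, 9.02 and 8.76 against 5.31, 5.28 and 5.17, at least 4.37-fold lower. IL6 itself was below the reference in both lines. The growth factor gene IGF1 was at 4.78, 4.91 and 4.95 in KMS12-BM and 11.01, 11.17 and 11.37 in JJN3, a log2 difference of 6.30, whereas its receptor IGF1R was lower at -1.32 ± 0.12 (log2). IL32, a cytokine of lymphoid cells, was at least 106-fold higher in JJN3. Of 29 chemokine and chemokine receptor genes, 10 were called higher and 8 lower, with a median of 0.10. Only 10 of the 29 lay above the reference in a line. RGS1, which dampens chemokine receptor signals, was at 3.90, 4.30 and 4.11 in KMS12-BM and 11.95, 12.76 and 13.53 in JJN3, at least 58.8-fold higher. The ligands CCL2 (at least 10.4-fold) and CCL3 (at least 6.39-fold) were higher, and CXCR4, the marrow homing receptor, was not called (0.05 ± 0.13, adjusted p = 0.84).

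Among adhesion genes, 13 of 37 measured were called higher in JJN3 and 11 lower. Of the 37, 17 lay above the reference in a line. ITGB8 (at least 14.4-fold) and ITGB5 (at least 7.47-fold) were higher, and ITGAL and ITGA4, the alpha chains of leukocyte integrins, were higher by 2.75 ± 0.15 and 2.30 ± 0.15 (log2). ITGB1, the partner of ITGA4 in VLA-4, was lower at -1.85 ± 0.14, with levels of 11.97, 12.44 and 12.05 in KMS12-BM and 10.15, 10.20 and 10.56 in JJN3. SELPLG, a selectin ligand, was lower at -2.85 ± 0.16, and the tetraspanin gene CD9 at least 19.6-fold lower.

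NF-kB and cell death genes were called in both directions. Of 30 NF-kB genes, 12 were called higher in JJN3 and 10 lower, with a median of 0.10. TNFAIP3, the feedback inhibitor A20, was at 8.91, 8.57 and 8.89 in KMS12-BM and 14.34, 14.66 and 14.91 in JJN3 (log2 difference 5.84 ± 0.15, adjusted p = 2.8e-14). TRAF3, a brake on the alternative pathway that is often lost in myeloma, was lower in JJN3, at 11.60, 11.53 and 11.42 against 9.35, 9.51 and 9.63 (log2 difference -2.02 ± 0.09, adjusted p = 3.3e-11), and the subunit gene REL was lower at -3.13 ± 0.11. Of 21 genes of the BCL2 family, 7 were called higher, 3 lower and 11 were not called. PMAIP1, which encodes the death-promoting protein NOXA, was at least 8.63-fold higher. MCL1, a survival gene of plasma cells, was higher by 0.83 ± 0.11 (log2, adjusted p = 6.5e-06), BCL2 was not called (0.15 ± 0.17, adjusted p = 0.57) and the effector BAK1 was at least 2.12-fold lower. Among death receptors and caspases, 9 of 23 were called higher and 11 lower, with a median of -0.28. CASP4 was at 4.55, 4.66 and 4.70 in KMS12-BM and 10.56, 10.70 and 10.36 in JJN3, at least 12.7-fold higher, and CASP1, which like it acts in inflammatory cell death, at least 7.42-fold higher. TNFRSF1A, a TNF receptor, was lower at -4.23 ± 0.13 and TNFRSF10A, a TRAIL receptor, at -2.70 ± 0.13.

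Interferon response genes were also mixed. Of 45 measured, 22 were called higher in JJN3, 8 lower and 15 were not called, with a median log2 difference of 0.18. Only 15 of the 45 lay above the reference in a line, so some calls are in genes below it in both lines. SAMD9L, an antiviral gene, was at 6.11, 6.15 and 5.98 in KMS12-BM and 13.17, 12.49 and 12.63 in JJN3, at least 59.6-fold higher. OAS2, which makes the activator of RNase L, was at 11.94, 11.92 and 11.94 against 5.30, 4.93 and 4.88, at least 33.5-fold lower. IFI6 (at least 9-fold) was higher, and IFI16, a DNA sensor, was lower at -2.37 ± 0.13.

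In cholesterol synthesis and uptake, 17 of 26 measured were called higher in JJN3, 7 lower and 2 were not called, with a median of 0.61. INSIG1, a sterol-regulated inhibitor of the pathway's activation, was at 11.01, 11.81 and 11.35 in KMS12-BM and 14.52, 14.88 and 14.98 in JJN3 (log2 difference 3.40 ± 0.23, adjusted p = 2.4e-09). The enzyme genes MSMO1 (2.02 ± 0.14) and PMVK (1.96 ± 0.21) were higher, and CYP51A1 (-1.30 ± 0.14) and TM7SF2 (-3.84 ± 0.13) were lower. The serum share of the medium differs between the lines, and its part in these values was not tested. Of 35 genes of serine and amino acid metabolism 10 were called higher and 11 lower, and of 42 glutathione and detoxification genes 16 and 14. Of those 42, 20 lay above the reference in a line. ASS1, the enzyme that makes the arginine precursor argininosuccinate, was at 11.60, 12.30 and 12.22 in KMS12-BM and 7.75, 7.62 and 7.81 in JJN3 (log2 difference -4.31 ± 0.24, adjusted p = 2.7e-10). GSTP1, a glutathione transferase, was at 12.97, 12.96 and 12.92 against 8.86, 9.06 and 8.55 (log2 difference -4.13 ± 0.14, adjusted p = 5.2e-13). Of 19 CLK, DYRK, SRPK and HIPK kinase genes 6 were called higher and 6 lower. Among the CLK genes, CLK2 was lower in JJN3 at -0.84 ± 0.10, CLK3 higher by 0.47 ± 0.09 and CLK1 was not called (adjusted p = 0.81). Of 10 common reference genes 4 were called higher and 3 lower, among them TBP (-1.67 ± 0.11), while ACTB was not called (0.16 ± 0.07, adjusted p = 0.091). Of the remaining lists, tumour suppressors lost in myeloma had 13 of 23 called higher and 6 lower, glycolysis 15 of 29 and 6, mitosis 15 of 41 and 12, and chromatin regulators 14 of 39 and 17. SR splicing factors had 5 of 30 called higher and 11 lower, homeobox cluster genes 2 of 34 and 7, and cancer-testis genes 4 of 46 and 13. Only 4 of those 46 cancer-testis genes and 5 of the 34 homeobox cluster genes lay above the reference in a line.

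Some of the largest differences lay outside these lists. GTSF1, a zinc finger gene of the germline small RNA pathway, was at 16.37, 16.46 and 16.35 in KMS12-BM and 4.95, 4.67 and 4.83 in JJN3, at least 737-fold lower. SLC43A3, a nucleobase transporter gene, was at least 182-fold lower, and NCKAP1L, a blood cell regulator of the actin skeleton, at least 48.6-fold lower. Each lay far above the reference on the 3 KMS12-BM arrays. TBX5, a factor of heart and limb development, was at 11.25, 11.32 and 10.89 in KMS12-BM and 4.32, 4.34 and 4.52 in JJN3. On the JJN3 side, SLCO4C1, an organic anion transporter, was at 4.07, 4.2 and 4.39 in KMS12-BM and 14.23, 14.35 and 14.36 in JJN3, at least 175-fold higher. MACC1, known in colon cancer as an activator of MET, was at least 110-fold higher, SULF1, a sulfatase of heparan sulfate chains, at least 83.5-fold, and CRISP3, a secretory granule protein of neutrophils, at least 146-fold.

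Markers of other cell types were low in both lines. Of 19 T and NK cell markers 2 lay above the reference in a line, of 17 myeloid markers 1, of 8 erythroid and globin genes 1 and of 19 stromal and endothelial markers 2. The stromal pair was VIM, the intermediate filament of mesenchymal cells that many blood cells also express, at 5.57, 5.49 and 5.41 in KMS12-BM and 12.02, 12.02 and 11.91 in JJN3, and COL6A1, higher in JJN3 by 3.87 ± 0.28 (log2, adjusted p = 6.2e-09).

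Line differences were spread unevenly over the chromosomes. They were counted over 7252 protein-coding genes above the reference in a line, of which 35.4% were called higher in JJN3 and 41.6% lower, with a median log2 difference of -0.09. A gene that passed this filter through one line only had to differ, so the shares describe the genes that passed. On chromosome 4, 204 of 271 genes (75.3%) were called higher and 27 lower, with a median of 0.73. Chromosomes 5 (64.1% higher, median 0.46) and 18 (62.6%, median 0.52) leaned the same way. On chromosome 9, 215 of 277 genes (77.6%) were called lower and 29 higher, with a median of -0.75. Chromosomes 12 (73.8% lower, median -0.74), X (72.7%, median -0.70), 14 (68.8%, median -0.60), 15 (65.8%, median -0.65) and 7 (61.7%, median -0.64) were alike in direction. The same medians in the drug arrays, which are separate samples, were 0.67 with TG003 and 0.78 with amiloride for chromosome 4, and -0.77 and -0.72 for chromosome 9. None of these medians changed sign under either array scaling. DNA copy number was not measured, and its part in these values was not tested.

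**Figure D4:**
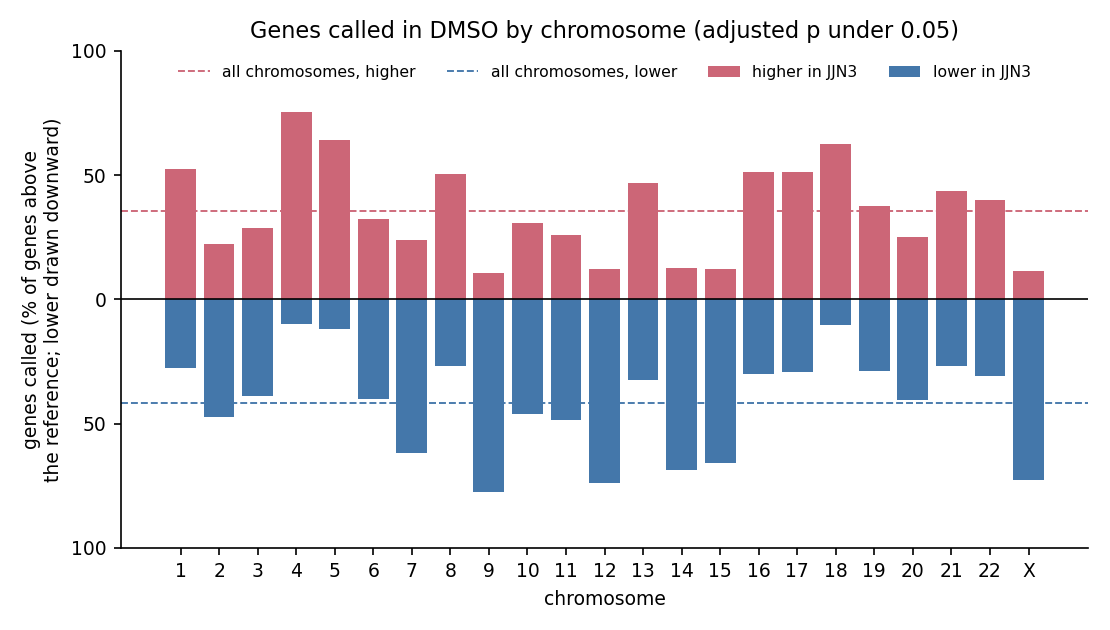
Percentage of protein-coding genes above the reference that were called higher in JJN3 (upward bars) or lower (downward bars) in DMSO, by chromosome, with dashed lines at the shares over all chromosomes (35.4% and 41.6%). Chromosome 4 reaches 75.3% higher, and chromosomes 9 and 12 reach 77.6% and 73.8% lower.

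Some neighbouring genes were called together. The 7252 protein-coding genes above the reference in a line were put in RefSeq order, so genes below it in both lines are skipped and neighbours need not be adjacent in the genome. Of these, 1119 were called at least 2-fold higher and 1214 lower, and 225 of them lay in 34 runs of at least 5 in 1 direction, 14 higher and 20 lower. Genes such as AHR and MACC1 passed the filter only through JJN3, so the runs are a description. The longest, on chromosome 7, ran over 16 genes from STK17A to H2AZ2, each lower in JJN3, with log2 differences of -1.01 (POLM) to -2.67 (H2AZ2). In amiloride 1 of them, DBNL, an actin-binding adaptor, was called the other way (1.06). A second on the same chromosome held 12 genes from FAM185A to SYPL1, including ORC5, a subunit of the origin recognition complex, at -2.10 and the SR protein kinase gene SRPK2 at -2.04. Also on chromosome 7, 9 genes from AHR to STEAP1B were higher, and these include AHR (6.39), MACC1 (9.29) and ITGB8 (5.94). On chromosome 6 the run of 7 genes higher in JJN3 was that from HLA-DRA to HLA-DQB2. On chromosome 19, 6 zinc finger genes from ZNF506 to ZNF737 and 6 from ZNF98 to ZNF91 were lower, among them ZNF730 at -4.06. Such neighbours can share probe sequence, so their separate values are uncertain.

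The line differences were next set against those in the drug arrays. These are other samples of the same lines, so each comparison uses its own arrays. All comparisons came from the same limma fit, however, and share the variance estimate of each gene. A gene with a small estimate was more readily called in each of them, so agreement in calls is not agreement between separate tests. In TG003, 9530 genes were called between the lines (42.4%) and in amiloride, at doses that differ between the lines, 9877 (44%). Of the 9258 genes called in DMSO, 7804 (84.3%) were called in the same direction in TG003 and 44 in the opposite one. In amiloride 7266 (78.5%) were called in the same direction and 316 in the opposite one. Of the 3003 called at least 2-fold, 2970 (98.9%) kept direction and call in TG003 and 2861 (95.3%) in amiloride, where 22 were called in the opposite direction. All 405 genes called at least 8-fold were called in the same direction in TG003, and 404 of 405 in amiloride. The 5 markers differed between the lines in TG003 by -8.64 (CCND1), 8.75 (CCND2), 6.89 (MAF), 11.83 (HGF) and 12.44 (HLA-DRA). The change of the line difference with TG003 was not called for any of the 5 (adjusted p from 0.13 to 0.98). With amiloride it was called, in the fit without a replicate block, for CCND2 alone, whose line difference was 9.80 ± 0.12 against 9.24 ± 0.12 in DMSO, a change of 0.55 ± 0.17 (adjusted p = 0.034). For MAF the change was 0.69 ± 0.26 (adjusted p = 0.083), and with the replicate number as a block it was called (0.69, adjusted p = 0.038). The CCND2 call was lost when KMS12-BM DMSO array 1 or 2 or any of the 3 KMS12-BM amiloride arrays was left out. It was also lost without JJN3 DMSO array 3 or JJN3 amiloride array 1 or 2. In these fits the CCND2 change was 0.47 to 0.56 (limma adjusted p from 0.055 to 0.093).

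**Figure D5:**
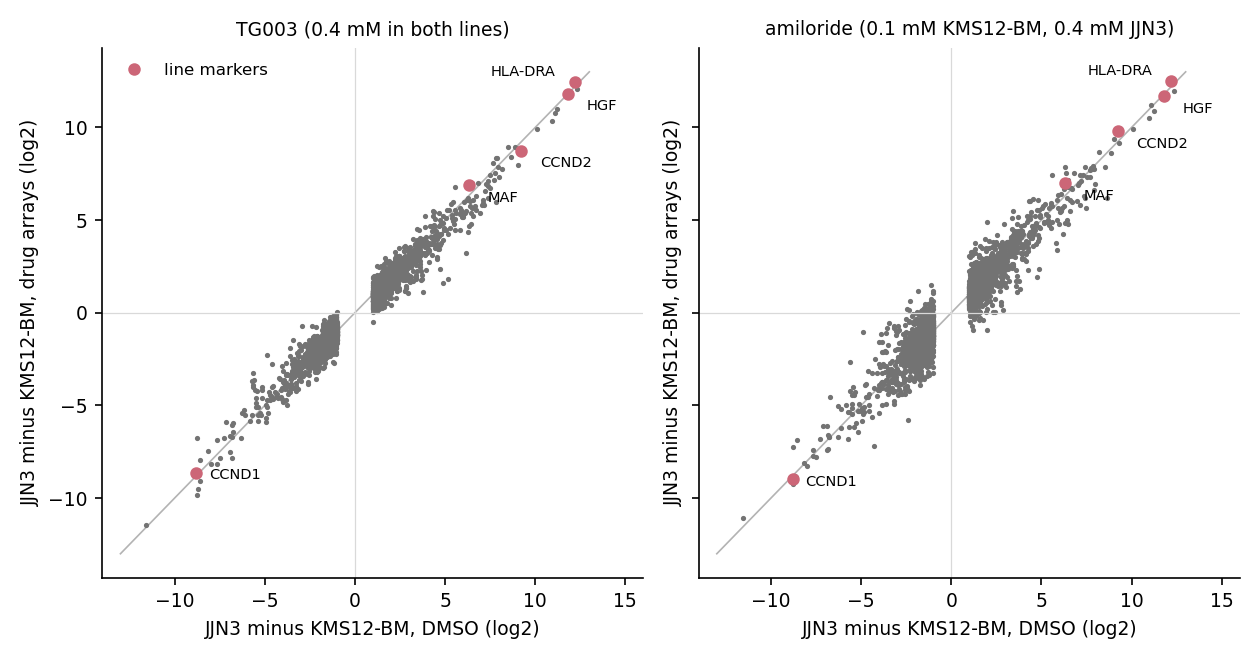
Log2 line difference in TG003 arrays (left) and amiloride arrays (right) against that in DMSO arrays, for genes called at least 2-fold in DMSO, with the 5 markers in red and the line of equal values in grey. The markers lie near the line of equal values, and the scatter off it is wider in the amiloride panel, where doses differ between the lines.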

How the data were processed

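Each array's deposited table holds log2 values from RMA, a step named without a version per the submitters' processing notes. For the genome build, none is given in the sources used here. A platform annotation listed 25324 of 70523 probe sets, and 23781 carried 1 symbol, 1543 several and 45199 were not listed. The probe set with the highest mean stood for each of 479 genes with several. RefSeq (GRCh38.p14) placed 22164 of 22465 genes and is used for chromosome, order and sequences. Of the 92 control probe sets behind the reference, 5 lay above it, up to a mean of 15, so it may not measure background alone.

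The tests used limma (version 3.58.1, R 4.3.3) with 6 group means over 18 arrays, two-sided. Python 3.11.15, pandas 2.3.3, numpy 2.4.6 and matplotlib 3.10.9 made tables and figures. On simulated data for this comparison with 22465 genes, 72.7% of changes of 0.5 log2, 94% of changes of 1 and 100% of changes of 2 were recovered, with 8 false calls. The simulation changed only 66 genes by 0.5, 67 by 1 and 67 by 2, and gave each array independent noise. In the data far more genes were called, so these rates need not hold there.

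Named genes are the 5 markers, the 15 largest differences each way that do not overlap and whose higher line is above the reference, up to 4 members of each of 41 lists (1054 measured entries) in each direction, members of lists whose count is given, and neighbours in runs. LOC, LINC, open reading frame and antisense symbols were left out of the 15. The members, lists and rules were chosen with earlier results of these data known. Genes of the Y chromosome and XIST are not reported.

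Nothing in the labels ties the 3 arrays of each group to independent cultures, and p-values may therefore reflect technical spread alone. The number of arrays limits the precision. Replicate numbers follow a serial code in the titles. After group means were removed, same-numbered DMSO arrays of the lines correlated at 0.16, 0.24 and 0.28, and differently numbered ones at -0.33 to 0.12. The numbers may thus pair the arrays, which the labels do not state. The reported tests leave out such pairing, and a replicate block was an alternative. Other alternatives were further quantile normalization, arrays centred on their medians, the compared groups alone, a filter at the reference, the mean of all probe sets, an intensity trend and each array left out.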

Additional observations from a re-analysis of the deposited data

Results flagged for a closer look

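The CCND2 line difference differed between drug and solvent arrays. It was larger by 0.55 ± 0.17 (log2, limma adjusted p = 0.034) with amiloride than with DMSO. In JJN3 the CCND2 level was 15.78, 15.82 and 15.38 with amiloride against 15.30, 15.31 and 15.06 with DMSO, higher on all 3 arrays, and in KMS12-BM it was below the background reference of 6.87 in both. The amiloride dose was 0.1 mM in KMS12-BM and 0.4 mM in JJN3, so dose and line cannot be told apart. With 1 array left out the change was 0.47 to 0.70, and 4 of 12 such fits called it. Over the alternatives the adjusted p ran from 0.0043 to 0.093.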

How the results depend on the processing

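The counts of calls in DMSO stayed within 1.5 times the reported ones in every alternative run, from 6462 to 9740 against 9258 and, at least 2-fold, from 2618 to 3057 against 3003. With the replicate block, 4399 genes were higher and 5214 lower, and among the named genes and the line differences set between treatments it changed no call apart from MAF below. The counts by list, family, chromosome and run were not recomputed with it. The median over all genes moved by 0.031 with further quantile normalization and by -0.044 with centring, and the share of calls higher in JJN3 was 45.9%, 50.5% and 40.4% in turn. Restricting the fit to genes above the reference, which tests fewer genes, left 2782 higher in JJN3 in TG003 (4265 reported) and 2959 in amiloride (4447 reported). Of 248 named genes, 242 kept direction and call in all alternatives run, and RFXANK, CALR, CKS1B, ILF2, SLC9A8 and YWHAZ lost the call in at least 1. None reversed. The change of the CCND2 line difference with amiloride was 0.47 to 0.70 with 1 array left out, and 4 of those 12 fits called it, the call being lost without KMS12-BM DMSO 1 or 2, KMS12-BM amiloride 1, 2 or 3, JJN3 DMSO 3 or JJN3 amiloride 1 or 2. The same change for MAF was 0.69 (adjusted p = 0.083). It was 0.69 with the replicate block (adjusted p = 0.038), 0.69 over genes above the reference (adjusted p = 0.039) and 0.52 to 0.89 with 1 array left out, called in 2 of 12 fits (without JJN3 DMSO 3 or JJN3 amiloride 1), and its adjusted p ran from 0.017 to 0.21 over the alternatives. The cause was not tested. Levels below the reference limit every difference that starts from them to a lower bound.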

Other observations

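These families were picked after their values were seen. SNORD116 genes, small nucleolar RNAs in many near-identical copies at the imprinted Prader-Willi region of chromosome 15, were lower in JJN3 in all 19 copies measured, 18 of them at least 2-fold, with a median log2 difference of -4.93. Of the 19, 16 lay above the reference in a line. SNORD116-17 was at 16.28, 16.03 and 16.56 in KMS12-BM and 8.05, 7.29 and 7.72 in JJN3, a log2 difference of -8.60 ± 0.24 (limma adjusted p = 5.2e-14). The copies share sequence, so they are not separate observations. Of 31 copies of SNORD115, the other cluster of that region, 0 were called by limma and 0 lay above the reference. At another imprinted locus, PEG10, a gene derived from a retrotransposon, was at 4.73, 4.96 and 4.89 in KMS12-BM and 12.65, 12.76 and 12.94 in JJN3, at least 60.4-fold higher, and its neighbour SGCE was higher by 3.11 ± 0.10 (log2).

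Of 533 genes with ZNF symbols, 91 were called higher in JJN3 and 238 lower, with a median log2 difference of -0.17 against -0.02 over all genes. The shares called over all genes were 18.9% higher and 22.3% lower. Of the 533, 268 lay above the reference in a line, with 45 called higher and 161 lower. The other calls are in genes below it in both lines. ZNF556 was at 9.68, 9.84 and 9.62 in KMS12-BM and 5.11, 4.85 and 4.99 in JJN3, and ZNF841 ran the other way, at 5.76, 5.90 and 5.80 against 8.61, 8.45 and 8.66. Of 81 microRNA genes above the reference in a line, 2 were at least 2-fold higher in JJN3 and 6 lower. Over all 22465 genes, which include those below the reference, the shares were 6.52% and 6.85%. Of the 8063 genes above the reference in a line, 2543 were called at least 2-fold, a larger share than among these microRNA genes. MIR5047 was higher by 3.44 ± 0.27 (log2), and MIR181A1 was below the reference in both lines and not called (limma adjusted p = 0.56). MIR181B1 was at 4.82, 4.68 and 4.92 in KMS12-BM and 7.99, 7.93 and 7.41 in JJN3 (log2 difference 2.97 ± 0.22, adjusted p = 7.9e-09). The probe set does not separate precursor from mature RNA. The main mature sequence from RefSeq (GRCh38.p14, chr1:198858925-198858947, minus strand) is shown with its seed, bases 2 to 8, in capitals.
hsa-miR-181b-5p: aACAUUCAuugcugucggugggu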
